A study of Mus musculus with 12 samples.

Results

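The 48 genes described here encode factors that build ribosomes in the nucleolus, with a few growth genes that MYC is known to activate alongside them. They were chosen by name, and they are 48 of the 27179 genes listed in the count table. All 48 were matched by gene symbol and all 48 passed the filter on low counts, so none is missing from the tests. The samples were hematopoietic stem cells, the source of every blood lineage, sorted from 12 C57BL/6J mice of 4 genotypes, and the total RNA of each mouse gave 1 library. Group WT held the Wild-type libraries WT2, WT3 and WT4. E1, E2 and E3 came from Emu-myc mice (group E), which carry Myc under an immunoglobulin heavy chain enhancer, an element that drives the transgene mainly in the B lineage. C1, C2 and C3 were Casp1 -/- Casp11 -/- (group C), a knockout of the inflammatory caspases of pyroptosis. CE1, CE2 and CE3 were Emu-myc Casp1 -/- Casp11 -/- (group CE). The labels used here give no age, sex, litter or sorting gate.

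Ribosome production starts with RNA polymerase I, which transcribes the long ribosomal RNA precursor in the nucleolus. Small nucleolar ribonucleoproteins (snoRNPs) then modify that precursor, and large sets of assembly factors cut and fold it with ribosomal proteins into the small and large subunits. MYC is a general activator of these genes and binds, as a dimer with MAX, the E-box motif CACGTG near their start sites. Stem cells in blood are known for a low rate of protein synthesis.

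The E-box was searched in RefSeq promoter windows (GRCm38.p6, the assembly of mm10), each running from 250 bases before to 50 bases after a gene's start. Windows were present for 42 of the 48 members (44 windows, since some genes have more than 1 start). CACGTG was in 11 of the 44 member windows (25%) and in 7.15% of all 32851 windows. The latter were not limited to genes expressed here, and the share among the tested genes was not computed. The motif reads the same on both strands, so 1 search covers both. In 8 of the 11 members it lay after the start, its first base at positions 3 to 41, and in the other 3 it lay before. The stretches below show the motif in capitals with up to 12 bases on either side, 5′ to 3′ on the gene's strand, for the 3 members that held it before the start (Imp4 at -121, Nop2 at -60 and Utp18 at -20, counted from the start) and for 2 described in detail below that held it after the start (Ltv1 at 29 and Mybbp1a at 41). They lie at chr1:34439696-34439725 (plus strand), chr6:125131811-125131840 (plus), chr11:93885769-93885798 (minus), chr10:13193092-13193121 (minus) and chr11:72441355-72441376 (plus).
Imp4: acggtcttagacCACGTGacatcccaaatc
Nop2: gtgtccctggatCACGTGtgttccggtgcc
Utp18: gcgagcgccggtCACGTGgcttgcggcggc
Ltv1: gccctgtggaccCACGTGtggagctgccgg
Mybbp1a: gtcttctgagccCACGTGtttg
A match is a sequence description and does not show that MYC was bound.

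Levels are CPM, counts scaled to each library's effective size, and values of 3 libraries are given in the order of their numbers. The 12 libraries held 24529611 to 34065910 counts, of which the 48 members took 0.713 to 0.914%. Casp1, a target of the knockout, averaged 39.1 CPM in WT and 42.1 in E, against 5.90 in C and 6.12 in CE. Casp11, the other target, is counted as Casp4 and was lower by far less, with means of 13.0 CPM for WT and 14.7 for E, against 8.98 for C and 10.8 for CE. Casp4 did not pass in C against WT (edgeR adjusted p = 0.11) or CE against E (edgeR adjusted p = 0.177), and passed in the pooled caspase comparison (log2 -0.49, edgeR adjusted p = 0.0189). Counts of a whole gene do not show which exons they fall in. Myc itself averaged 425.9 ± 28.5 CPM for WT, 433.6 ± 13.0 for E, 326.7 ± 8.85 for C and 366.9 ± 36.9 for CE (SD over 3 mice). The WT and E libraries overlapped in Myc, while every CE library (344.6 to 409.5) lay above every C library (319 to 336.6), and neither comparison passed (edgeR adjusted p = 0.967 and 0.9995). Transcripts from the Y chromosome summed to 93.3 to 122 CPM in the C libraries, CE1 and CE2, and to at most 0.257 CPM in the other 7 libraries, CE3 among them. The caspase genotype and the Y-linked signal therefore cannot be told apart except through CE3. C1 and C3 had a count for 22900 and 21247 genes, against 17310 to 18863 in the other libraries. Of the stem cell markers, all 19 were tested, and their summed level was 2283 to 2966 CPM in every library. Cd34 (859 to 1157 CPM), Kit (364 to 508) and Gata2 (246 to 331) were the highest of them. Others were low: Hoxb5 reached 1.94 CPM, Slamf1 5.05, Fgd5 13.9, Procr 18.4 and Mecom 20.3. Of 9 T and NK cell markers, Cd3d, Cd3e, Cd3g and Trac were under 1 CPM in all libraries, Cd4 reached 8.1 CPM, and Nkg7 at 129 to 224 CPM made up most of the summed 137 to 235 CPM. Of 15 erythroid markers, only the globins Hba-a2 and Hbb-bs were under 1 CPM in all libraries, and the globin Hba-a1 reached 3.54 CPM. Markers of neutrophils and their precursors summed to 8330 to 13280 CPM over the 12 libraries. Mpo, at 5456 to 9054 CPM, made up most of this sum and was above every stem cell marker. Elane, Prtn3 and Ctsg followed, and the rest of that list reached at most 8.3 CPM (S100a8). The share of myeloid precursors among the sorted cells was not tested.

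**Figure D1:**
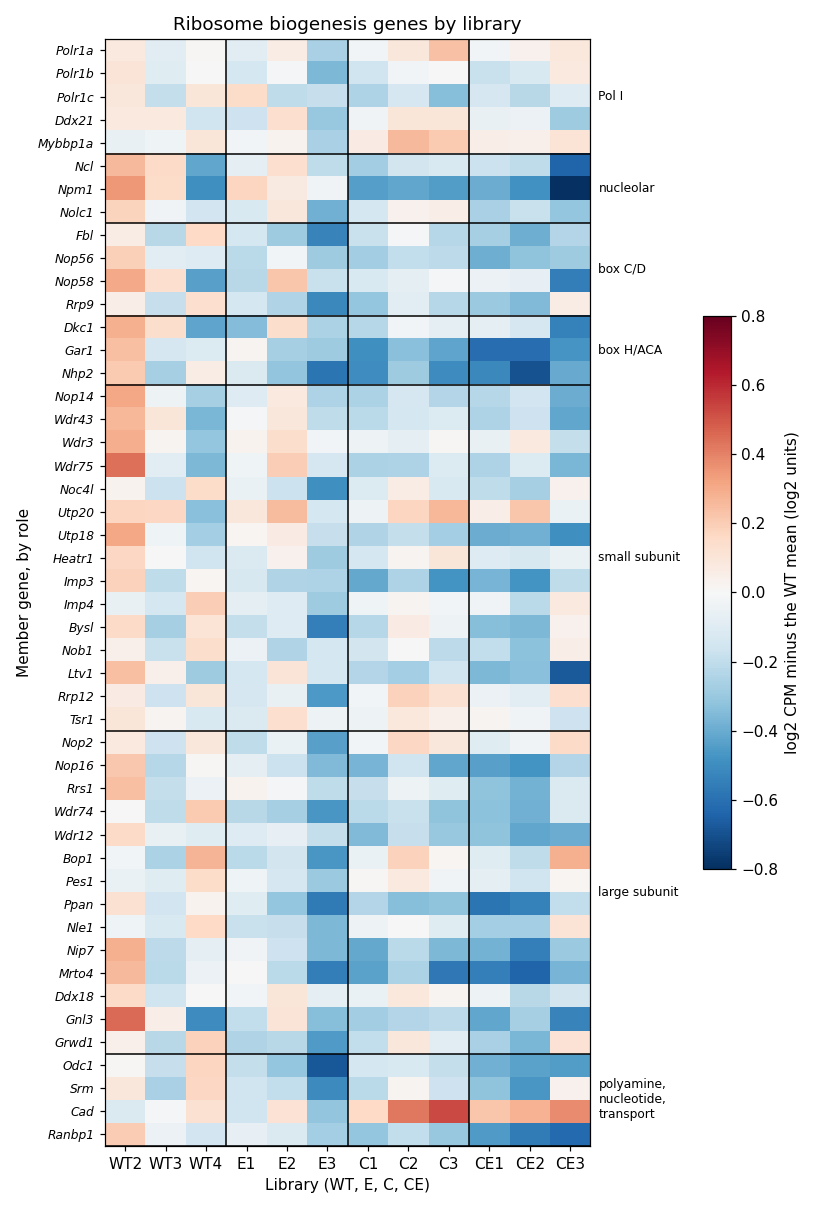
Each row is a member gene, ordered by role, and each column a library (WT, E, C and CE, 3 mice each). Color gives the log2 CPM minus the mean of the 3 WT libraries, from blue (lower) to red (higher), with values beyond 0.8 drawn at the end color. WT2 is red in most rows and E3 blue, while Cad is red across C and CE.

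Per kilobase of coding sequence the members spanned a wide range of expression. Npm1, the abundant nucleolar chaperone nucleophosmin, was highest at 853 CPM per coding kilobase averaged over the 12 libraries. Nhp2 (475), Ranbp1 (472), Ncl (369) and Srm (318) followed on the same scale, and Utp20, a very long scaffold protein of small subunit assembly, was lowest at 9.25. The genotype differences were small beside this range. In the 4 comparisons of single groups, the members' fitted log2 fold changes ran from -0.66 to 0.40.

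With the caspases intact, the transgene comparison E against WT gave lower means for 45 of 48 members, with a median log2 fold change of -0.16. Over all 14473 genes tested, 50.6% were lower and the median was -0.0025. None of the 48 passed edgeR's quasi-likelihood test at an adjusted p under 0.05, a threshold that 0.0829% of all genes passed, and 8 members were lower at an unadjusted p under 0.05 (3.26% of all genes were). DESeq2 and limma voom called none either. The values of all E libraries lay below all WT libraries for 3 members, Odc1, Wdr74 and Nle1 (6.25%, against 3.56% of all genes in that direction). In bulk RNA such as this, fewer cells of a type and less RNA per cell cannot be told apart.

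On the caspase knockout background, CE against C, 45 of 48 members again had lower means, with a median of -0.096 against 0.0079 over all genes. No member passed in edgeR, DESeq2 or limma voom (0.207% of all genes passed in edgeR), and 2 members, Ranbp1 and Odc1, were lower at an unadjusted p under 0.05 (3.08% of all genes). All CE libraries lay below all C libraries for 8 members (16.7%, against 7.86% of all genes). The E against WT and CE against C comparisons share no library. In both of them 42 of the 48 members were lower, as were 28.1% of all genes. The test of the difference between these comparisons called no member and no gene (0.0% called), with 0 members at an unadjusted p under 0.05 (1.33% of all genes were lower at that threshold) and a median difference of 0.061. Averaged over both backgrounds, the transgene difference had a median of -0.14, 45 of 48 lower. No member passed in edgeR (0.539% of all genes did), and 7 were lower at an unadjusted p under 0.05 (4.56% of all genes): Odc1, Ranbp1, Fbl, Ppan, Nhp2, Wdr74 and Nolc1.

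**Figure D2:**
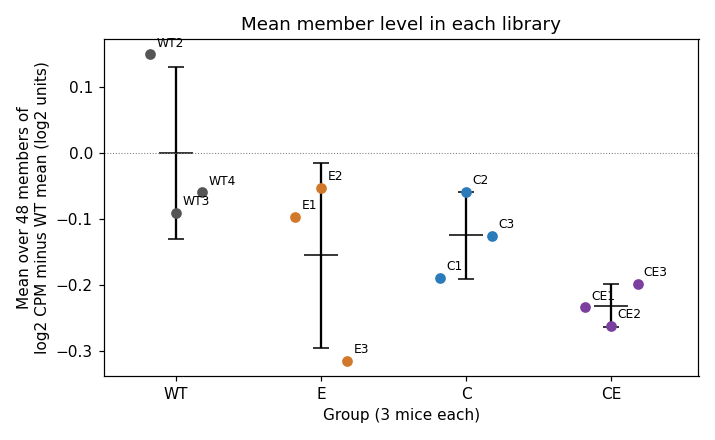
Points give, for each library, the mean over the 48 members of log2 CPM minus the WT mean (log2 units), and bars the group mean and SD (n = 3 mice). WT2 at 0.15 and E3 at -0.31 are the ends of the range, and the 3 CE libraries lie between -0.26 and -0.20.

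The E against WT difference varied in size with the libraries included. The mean of the members' log2 CPM, relative to the WT mean, was 0.15 in WT2, -0.090 in WT3 and -0.060 in WT4. For E1, E2 and E3 the values were -0.096, -0.053 and -0.31. E1 and E2 were thus close to WT3 and WT4. WT2 was the highest of the 12 libraries for 27 of the 48 members (it was so for 18.9% of all genes), and E3 the lowest for 21 (7.60% of all genes). Without WT2 the median E against WT fold change was -0.054, and without E3 it was -0.093. Without both, an alternative chosen after seeing the data, it was -0.0038. WT2 was the highest WT library on the mean of the members, and E3 the lowest E library. Leaving them out therefore shrinks the difference by construction. With each single library left out in turn, the median ranged from -0.20 to -0.054. The CE libraries lay closer together, at -0.23, -0.26 and -0.20, against -0.19, -0.058 and -0.13 in C1, C2 and C3. The median CE against C difference ranged from -0.14 to -0.060 when each library was left out in turn.

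Some other cell type lists moved with the transgene, a comparison that 0.539% of all genes passed. Of 14 tested B lineage markers, 10 were lower at an adjusted p under 0.05 averaged over both backgrounds, with summed levels of 112 to 231 CPM across WT, 94.0 to 123 across E, 198 to 296 across C and 88.3 to 94.4 across CE. All 15 erythroid markers had lower means and none passed, with sums of 623 to 1050 CPM across WT, 542 to 831 across E, 659 to 718 across C and 468 to 610 across CE. Stem cell markers went the other way: 18 of 19 had higher means, and Hlf and Mecom passed. Mast cell and basophil markers had lower means for 8 of 9 (median log2 -0.61) with none passing. S-phase and G2/M genes had lower means for 19 of 20 each with none passing, at medians of -0.092 and -0.062. Of the 16 immediate early and heat shock genes 14 had lower means, and Atf3 passed. Neutrophil, macrophage and T and NK cell markers were lower for 4 of 10, 3 of 9 and 3 of 6 tested, with none passing. The part of these shifts in the members' levels was not tested.

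With the transgene averaged out, the caspase comparison set the 6 libraries of C and CE against the 6 of WT and E. In edgeR 11 of 48 members fell (22.9%, against 11.8% of all genes) and 1, Cad, rose (9.26% of all genes rose). The members that fell were Gar1, Npm1, Ranbp1, Wdr12, Utp18, Mrto4, Ltv1, Imp3, Nhp2, Nip7 and Nop16. The median over all 48 was -0.090 with 33 lower, beside 0.0002 over all genes. With a covariate for Y-linked transcripts no member passed, and only 0.0138% of all genes did. With the trends of each library on transcript length and GC content removed 4 members passed (8.33%, against 11.0% of all genes). Of these only Gar1 and Npm1 were among the 12. With 1 library left out, 5 calls were left without C3 (10.8% of all genes were called) or without E1 (12.1%). There were 19 calls without WT4 (39.6%, against 31.3% of all genes). Calls numbered 6 without C1, E2 or WT2 (12.5%, against 13.5, 17.9 and 12.8% of all genes) and 7 without CE1 or CE2 (14.6%, against 15.6 and 13.0%).

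In the separate caspase comparisons no member passed in edgeR (0.656% of all genes passed for C against WT and 1.58% for CE against E). For C against WT the median was -0.13 with 37 lower. At an unadjusted p under 0.05, 13 members were lower (12.7% of all genes were) and 1 was higher (10.5%). DESeq2 and limma voom called 4 members each (8.33%), against 9.35% of all genes in DESeq2 and 12.3% in limma voom. The groups did not overlap for 9 members that were lower (13.9% of all genes) and 1 that was higher (12.5%). For CE against E the median was -0.091 with 29 lower. At an unadjusted p under 0.05, 6 were lower (12.5%, against 12% of all genes) and 1 was higher (10.6% of all genes). DESeq2 and limma voom called 5 members each (10.4%), against 9.25 and 9.62% of all genes. Groups did not overlap for 6 lower (15.1% of all genes) and 2 higher (14.8%). These comparisons share no library, and 26 members were lower in both, as were 38.1% of all genes.

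**Figure D3:**
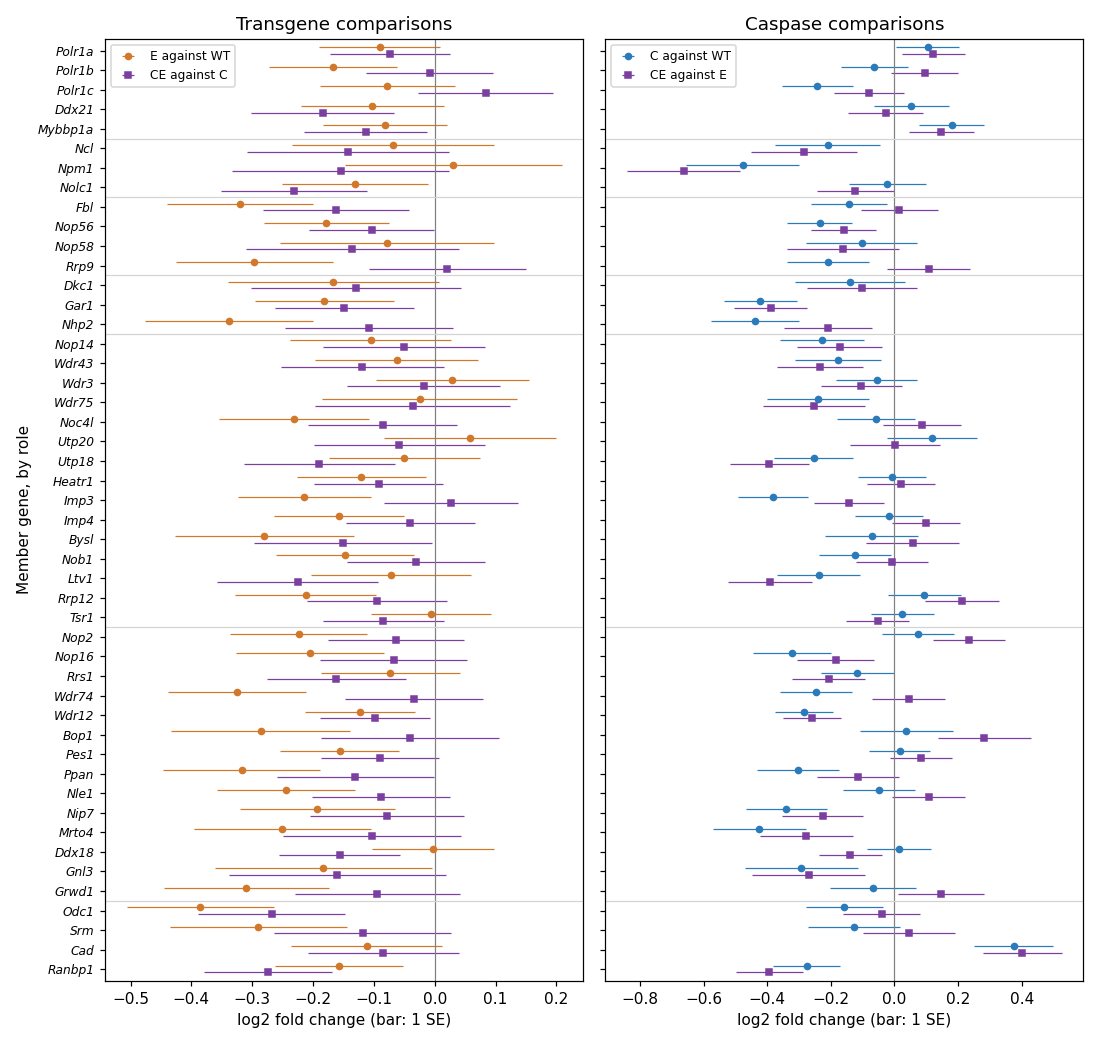
Log2 fold changes of the 48 members, by role, with bars of 1 SE from edgeR. The left panel shows E against WT and CE against C, where nearly all points lie left of 0, and the right panel C against WT and CE against E, where Npm1, Gar1 and Ranbp1 lie left and Cad right of 0 in both.

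Other gene lists moved with the caspase label too, under which 11.8% of all genes fell and 9.26% rose. Of 16 immediate early and heat shock genes, 14 rose. Their summed levels were 6039 CPM in WT2, 7216 in WT3 and 14958 in WT4, so that WT4 was near the C and CE libraries. They were 6643 to 8525 CPM across E, 16437 to 17555 across C and 15146 to 18582 across CE. Of 20 G2/M genes 9 fell, with sums of 2692 to 3833 CPM across WT, 3104 to 3412 across E, 2851 to 2888 across C and 2223 to 2788 across CE. Mast cell and basophil markers fell for 6 of 9, with sums of 173 to 264 CPM across WT, 94.6 to 292 across E, 98.4 to 142 across C and 73.2 to 79.4 across CE. Macrophage markers fell for 4 of 9. Their sums of 151 to 210 CPM over all libraries were mostly Csf1r, at 97.7 to 168 CPM. Myc also fell, by 0.31 on the log2 scale averaged over both backgrounds (edgeR adjusted p = 0.00816). Their part in the members' differences was not tested.

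RNA polymerase I and its regulators showed no called difference. The role holds Polr1a and Polr1b, core subunits of the enzyme, Polr1c, a subunit shared with RNA polymerase III, Ddx21, a nucleolar RNA helicase, and Mybbp1a, a nucleolar regulator of ribosomal RNA synthesis. Mybbp1a was at 496, 505 and 553 CPM across WT, 509, 528 and 432 across E, 541, 619 and 599 across C, and 536, 532 and 558 across CE. C2 and C3 were the highest libraries and E3 the lowest. Its pooled caspase log2 fold change was 0.16 (SE 0.072, edgeR adjusted p = 0.12). Ddx21 measured 211, 210.5 and 178 CPM across WT, 178, 219 and 162 across E, 196, 213 and 213 across C, and 191, 193 and 164 across CE. E2 was highest and E3 lowest, so that the E libraries spanned all others. The pooled transgene value of Ddx21 was -0.14 (SE 0.083, edgeR adjusted p = 0.666). Polr1a, Polr1b and Polr1c lay between 82.1 and 127 CPM in every library.

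Among the nucleolar proteins, Npm1 (chr11:33152498-33164142, mm10) gave the largest member difference. Npm1 had levels of 1091, 947 and 609 CPM across WT, 963, 901 and 840.3 across E, 631, 642 and 629 across C, and 650.2, 612 and 446 across CE. The 3 C libraries were within a narrow range, below all E libraries and below WT2 and WT3, while WT4 lay below all of C and CE3 was the lowest of the 12. The means were 882 ± 248 CPM for WT, 901 ± 61.5 for E, 634 ± 7.35 for C and 569 ± 109 for CE (SD, n = 3). Npm1 fell 1.48-fold with the caspase label (log2 -0.57, SE 0.13, edgeR adjusted p = 0.00872). Its transcript shares sequence with 5 annotated pseudogenes, so its counts may be divided among them. Ncl stood at 1021, 949 and 638 CPM across WT, 812, 936 and 739 across E, 703, 769 and 783 across C, and 757, 739.6 and 546 across CE. Ncl, nucleolin, another abundant nucleolar RNA-binding protein, had the same low libraries, WT4 and CE3. Its pooled caspase value was -0.25 (SE 0.12, edgeR adjusted p = 0.147). Nolc1 was at 238, 207 and 189.8 CPM across WT, 194, 224 and 162 across E, 191, 216 and 218 across C, and 176, 186 and 169.7 across CE. Nolc1, a phosphoprotein that accompanies snoRNPs, was lower in all CE than in all C libraries. Its CE against C log2 fold change was -0.23 (SE 0.12, edgeR adjusted p = 0.999).

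The box C/D snoRNPs guide methylation of ribosomal RNA. Fbl, fibrillarin, is their methyltransferase, Nop56 and Nop58 are the core proteins beside it, and Rrp9 is particular to the U3 particle. Fbl measured 232, 191 and 249 CPM across WT, 202, 183 and 153 across E, 196, 221 and 190.0 across C, and 185, 169.7 and 189 across CE. E3 was the lowest library, and the WT and E groups overlapped only through WT3 and E1. The E against WT value of Fbl was -0.32 (SE 0.12, edgeR adjusted p = 0.687). Nop56 had levels of 342, 281 and 278 CPM across WT, 257, 294 and 245 across E, 246, 261 and 258 across C, and 229, 239 and 245 across CE. WT2 stood above all others, and the other WT libraries overlapped E. Nop56 differed with the caspase label by -0.20 (SE 0.073, edgeR adjusted p = 0.0657), the smallest p in the role. Nop58 ranged from 106 to 191 CPM and Rrp9 from 66.6 to 104 CPM over the 12 libraries. Nop56 and Nop58 carry snoRNA genes in their introns, as 10 of the 48 members do (2.35% of all genes tested do).

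Box H/ACA snoRNPs, which guide pseudouridylation, gave 2 of the called members. Dkc1, dyskerin, is the enzyme, and Gar1 and Nhp2 are core partners that also belong to telomerase. Gar1 stood at 128, 99.1 and 101 CPM across WT, 110.1, 90.2 and 89.1 across E, 77.3, 86.3 and 81.2 across C, and 71.3, 71.1 and 78.4 across CE. All 6 libraries of C and CE lay below all 6 of WT and E. Gar1 (chr3:129824912-129831407, mm10) fell 1.32-fold with the caspase label (log2 -0.41, SE 0.081, edgeR adjusted p = 0.00566). It was lower by similar amounts without the transgene (log2 -0.42, SE 0.11) and with it (log2 -0.39, SE 0.11). Nhp2 was at 311, 224 and 280.3 CPM across WT, 249, 216 and 179.7 across E, 191, 221 and 189.8 across C, and 189, 166 and 203 across CE. Every C and CE library was below every WT library, while E3 was the second lowest of all. Nhp2 fell with the caspase label (log2 -0.32, SE 0.10, edgeR adjusted p = 0.0303). Dkc1 ranged from 89.2 to 158 CPM, with WT2 highest and CE3 lowest, and no comparison of it passed.

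Of the 15 small subunit factors, Utp18, Imp3 and Ltv1 fell with the caspase label and none rose. Utp18 and Imp3 belong to the U3-containing processome that makes the first cuts in the precursor, and Ltv1 is an assembly factor of the later small subunit precursor. Utp18 measured 82.3, 64.8 and 55.0 CPM across WT, 67.3, 69.6 and 58.4 across E, 56.1, 58.3 and 55.0 across C, and 50.5, 50.9 and 47.3 across CE. Every CE library was below every C library, and WT4 and C3 were equal at this precision. Utp18 fell with the caspase label (log2 -0.32, SE 0.088, edgeR adjusted p = 0.0194). Imp3 had levels of 202, 154 and 179.8 CPM across WT, 162, 150.1 and 149.8 across E, 134, 149.9 and 128 across C, and 137, 127 and 154 across CE. Every C and CE library lay below every WT library, CE3 by a narrow margin, while C2 and CE3 overlapped E. Imp3 fell likewise (log2 -0.26, SE 0.078, edgeR adjusted p = 0.0282). Ltv1 stood at 66.9, 58.2 and 46.3 CPM across WT, 51.3, 60.6 and 51.1 across E, 48, 46.8 and 50.5 across C, and 44.1, 44.8 and 35.5 across CE. CE3 was the lowest, and WT4 was below every C library. Ltv1 fell (log2 -0.32, SE 0.093, edgeR adjusted p = 0.028).

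In the transgene comparisons 13 of 15 small subunit factors were lower in E than in WT and 14 of 15 in CE than in C, with none called. Bysl was at 72.0, 54.0 and 69.9 CPM across WT, 56.6, 60.3 and 44.3 across E, 55.4, 67.8 and 63.0 across C, and 51.0, 50.5 and 66.3 across CE. Bysl, bystin, an assembly factor of the small subunit, was lowest in E3 and overlapped between all groups. Its pooled transgene value was -0.22 (SE 0.10, edgeR adjusted p = 0.576). Rrp12 measured 82.4, 70.3 and 84.4 CPM across WT, 71.7, 75.6 and 57.2 across E, 77.7, 89.6 and 85.7 across C, and 76.4, 74.1 and 86.5 across CE. Rrp12, which in yeast takes part in export of both subunits, was also lowest in E3, with C2 highest. Its value was -0.15 (SE 0.082, edgeR adjusted p = 0.631). Imp4 and Utp18, with their E-box before the start, had pooled transgene values of -0.10 (SE 0.075) and -0.12 (SE 0.088). The others of this role, Nop14, Wdr43, Wdr3, Wdr75, Noc4l, Utp20, Heatr1, Nob1 and Tsr1, lay between 40.8 and 171 CPM and passed in no comparison.

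All 14 large subunit factors were lower in E than in WT and in CE than in C, with none called. Wdr74 had levels of 92.2, 80.2 and 107 CPM across WT, 79.0, 76.8 and 66.8 across E, 79.7, 81.6 and 73.9 across C, and 73.5, 70.8 and 85.4 across CE. Wdr74, which acts in early maturation of the large subunit precursor, was lower in every E than in every WT library. Its E against WT value was -0.32 (SE 0.11, edgeR adjusted p = 0.629), while CE against C gave -0.034 (SE 0.11). The test of that difference gave an edgeR adjusted p of 0.9997. Ppan stood at 268, 221 and 251 CPM across WT, 229.6, 198 and 166 across E, 209, 195 and 197 across C, and 164, 169 and 215 across CE. Ppan, a large subunit assembly factor, was lowest in CE1, E3 and CE2. Its pooled transgene value was -0.22 (SE 0.091, edgeR adjusted p = 0.457).

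Of the large subunit factors, Wdr12, Mrto4, Nip7 and Nop16 fell with the caspase label. Wdr12 was at 123, 106 and 103 CPM across WT, 103, 106 and 96.6 across E, 86.4, 97.0 and 89.3 across C, and 88.5, 82.8 and 83.7 across CE. Wdr12 forms the PeBoW complex with Pes1 and Bop1, and only C2 among its C and CE libraries reached the level of E3. It fell 1.21-fold (log2 -0.27, SE 0.064, edgeR adjusted p = 0.011). Its partners did not pass, at 0.049 (SE 0.069) for Pes1 and 0.16 (SE 0.10) for Bop1. Mrto4 measured 143, 103 and 115 CPM across WT, 119, 103 and 81.5 across E, 88.7, 100.1 and 80.1 across C, and 81.5, 76.6 and 92.2 across CE. Mrto4, related to the ribosomal stalk protein P0 and bound in its place during assembly, was below all WT libraries in every C and CE library. It fell (log2 -0.35, SE 0.10, edgeR adjusted p = 0.0275). Nip7 had levels of 110.3, 78.4 and 86.1 CPM across WT, 89.0, 80.8 and 70.5 across E, 68.4, 78.0 and 70.7 across C, and 69.6, 62.1 and 73.8 across CE. WT2 was above the other libraries of Nip7, a factor in ribosomal RNA processing. Nip7 fell (log2 -0.28, SE 0.090, edgeR adjusted p = 0.0377), and Nop16 fell just past the threshold (log2 -0.25, SE 0.086, edgeR adjusted p = 0.0487). Gnl3, nucleostemin, known for its high level in stem cells, ranged from 83.3 CPM in CE3 to 165 CPM in WT2 and did not pass (pooled caspase log2 -0.28, SE 0.13, edgeR adjusted p = 0.126). Nop2, Rrs1, Nle1, Ddx18, Grwd1, Pes1 and Bop1 passed in no comparison.

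The growth genes outside the nucleolus gave the smallest transgene p and the single member that rose. Odc1 stood at 369.6, 323 and 413 CPM across WT, 321, 296 and 229.6 across E, 333, 337 and 321 across C, and 281, 273 and 269.5 across CE. Odc1 (chr12:17544808-17551502, mm10) encodes ornithine decarboxylase, the rate-limiting enzyme of polyamine synthesis and a classical MYC target. Every E library was below every WT library, by a narrow margin at the nearest, and every CE library was below every C library. The means were 369 ± 45.0 CPM for WT, 282 ± 47.3 for E, 330.3 ± 8.26 for C and 274 ± 5.76 for CE (SD, n = 3). The transgene difference over both backgrounds was -0.33 (SE 0.086, 2 SE from -0.50 to -0.16) and did not pass in edgeR (adjusted p = 0.139). It passed with DESeq2 and with no filter on low counts, and over the 24 alternatives its adjusted p ranged from 0.0200 to 0.881. Odc1 shares sequence with 8 annotated pseudogenes. Srm, spermidine synthase, ranged from 225 CPM in E3 to 359 CPM in WT4, with a pooled transgene value of -0.20 (SE 0.10, edgeR adjusted p = 0.607).

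Cad was at 276, 297 and 325 CPM across WT, 267, 323 and 239 across E, 334, 399.5 and 429.7 across C, and 347, 362 and 387 across CE. Cad (chr5:31054620-31078479, mm10) encodes the enzyme that begins pyrimidine synthesis. All 6 C and CE libraries were above all 6 of WT and E. The gene rose 1.31-fold with the caspase label (log2 0.39, SE 0.088, edgeR adjusted p = 0.00939), by 0.37 without the transgene and 0.40 with it on the log2 scale. With length and GC trends removed the value was 0.039 (edgeR adjusted p = 0.776; range over 24 alternatives 0.000317 to 0.776). Ranbp1 measured 387, 325 and 302 CPM across WT, 321, 309.8 and 278 across E, 270.4, 293 and 273 across C, and 245, 228 and 218 across CE. Ranbp1, a binding partner of the nuclear transport GTPase Ran, was lower in every CE than in every C library, and lower in every CE than in every E library. It fell with the caspase label (log2 -0.34, SE 0.075, edgeR adjusted p = 0.0088). Its transgene value was -0.22 (SE 0.075, edgeR adjusted p = 0.356). With the trends removed its caspase value was -0.084 (edgeR adjusted p = 0.306; range over 24 alternatives 0.000445 to 0.306).

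**Figure D4:**
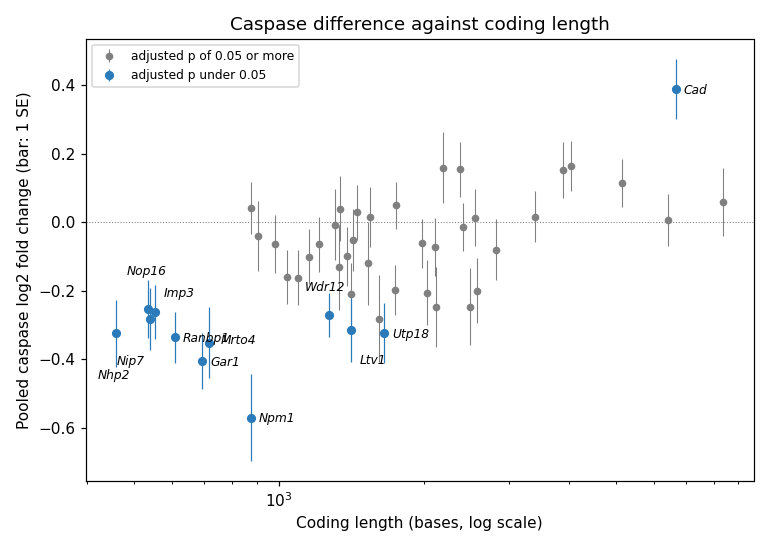
Pooled caspase log2 fold change (C and CE against WT and E, bar 1 SE from edgeR) against coding length on a log axis for the 48 members, with the 12 called ones in blue and named. Most called members lie at the short end below 0, and Cad lies at the long end above 0.

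The caspase difference of a member varied with its coding length. Across the 48 genes, Pearson's r between log2 coding length and the pooled caspase log2 fold change was 0.65, and over 13054 genes with a coding length it was 0.35. Genes of a library share its depth and base composition, so this is a description. The 16 shortest members, of 459 to 1269 bases, had a median of -0.26 and 9 of the 11 members that fell. The 16 longest, of 2106 to 8367 bases, had a median of 0.014 and the 1 that rose. After the transcript length and GC trends of each library were removed these medians were -0.13 and -0.083. Trends on coding length itself were not removed. For E against WT the medians were -0.19 in the shortest and -0.10 in the longest members, and -0.17 and -0.15 with trends removed.

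**Figure D5:**
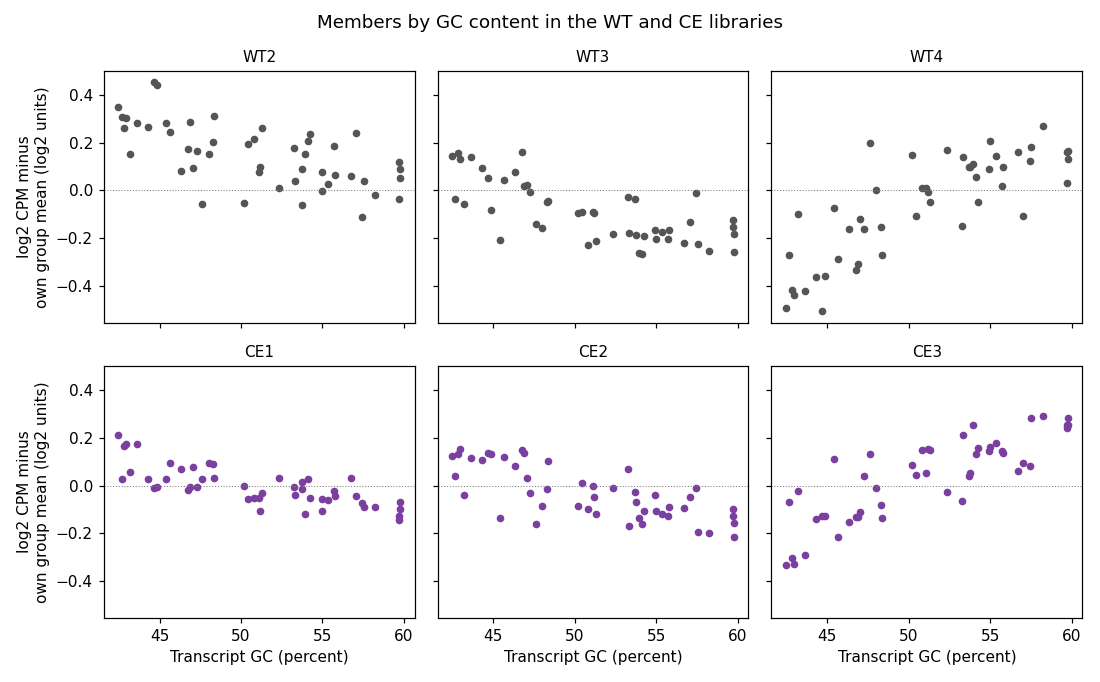
Each point is a member: its transcript GC content in percent against its log2 CPM minus the mean of its own group (log2 units), in the 3 WT and 3 CE libraries. The cloud slopes up in WT4 and CE3 and down in the other 4. Deviations cancel out within a group, so the slopes of its libraries are not independent.

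The members also varied together within groups, in a pattern tied to GC content. Transcript GC of the members ran from 42.4 to 59.8%, with a median of 51.1% (50.9% over all genes tested). In WT4 the correlation of GC with a member's deviation from its group mean was 0.81, and in CE3 it was 0.84. It was -0.63 in WT2, -0.72 in WT3, -0.77 in CE1 and -0.73 in CE2. Deviations from a group's own mean cancel out within the group, so these values follow in part from those of WT4 and CE3. In the E libraries it was 0.56 (E1), -0.36 (E2) and -0.35 (E3). In the C libraries it was -0.079 (C1), 0.47 (C2) and -0.33 (C3). Over all 13054 genes the values for WT4 and CE3 were 0.55 and 0.44. The E against WT log2 fold change of the members correlated with GC at r = -0.67 (all genes -0.20), while CE against C gave 0.23 (all genes -0.021). The deviations of the 48 members in WT4 and CE3 correlated with r = 0.87, and those of all genes with r = 0.33. AT-rich members such as Npm1, Ncl, Nop58, Dkc1 and Gnl3 were low in both libraries, and GC-rich members such as Bop1 and Grwd1 high. Without WT4 and CE3, chosen after seeing the data, 12 members were called for C against WT (25%, against 19.7% of all genes) and 19 for the pooled caspase comparison (39.6%, against 31.1%).

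Apart from group means, most members followed each other from mouse to mouse. Each member's deviations from its group means correlated positively with the mean deviation of the other members, with a median r of 0.62 over 12 libraries and 33 of 48 above 0.5. Over the other tested genes the median was 0.0025 and 12.2% were above 0.5. Nip7 (0.88), Rrs1 (0.87), Nop56 (0.87) and Wdr12 (0.86) followed the rest most closely, and Nob1, the nuclease that makes the final cut of small subunit RNA, least (0.23). Npm1 (0.30) and Cad (0.35) were also among the least tied to the rest.

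The wider pathway was read from 120 other ribosome biogenesis genes, none of them a member. With the caspase label 32 of them fell and 6 rose, with a median of -0.12. Over all genes 11.8% fell and 9.26% rose, shares that also stand beside the lists that follow. With the Y-linked covariate 0.0138% of all genes were called in this comparison, against 21.0% in the reported fit. In the nuclear exosome and its cofactors, which trim ribosomal RNA precursors, 8 of 15 fell and Exosc10 rose. Mphosph6, an exosome cofactor, averaged 30.8 CPM for WT, 31.0 for E, 24.1 for C and 20.4 for CE (log2 -0.48, SE 0.086, edgeR adjusted p = 0.00365). C1d, another cofactor, averaged 61.3, 64.4, 45.3 and 41.6 CPM in the same order (log2 -0.53, SE 0.095, edgeR adjusted p = 0.00369). Among 40 other small subunit factors 8 fell, led by Fcf1 (log2 -0.43) and Ngdn (log2 -0.42), and 2 rose. Among 46 other large subunit factors 11 fell, led by Rsl24d1 (log2 -0.51) and Rpf2 (log2 -0.57), and Mdn1 and Noc2l rose. Of 9 other snoRNP genes 4 fell, Nop10 with the smallest p (log2 -0.38, SE 0.089, edgeR adjusted p = 0.0105), and of 10 other RNA polymerase I genes Polr1d fell and Tcof1 rose. The genes named above as falling had short coding lengths, from 192 bases (Nop10) to 945 (Ngdn). Those named as rising were longer, from 2250 bases (Noc2l) to 16746 (Mdn1). Utp14a, of 2301 bases, also fell. The part of coding length and of the Y-linked signal in these differences was not tested.

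For the transgene over both backgrounds, 105 of the 120 had lower means with a median of -0.065. A single gene passed, in the other direction (0.539% of all genes passed). Rcl1, which acts in early cleavage of the small subunit precursor, averaged 94.0 ± 15.9 CPM for WT, 127.9 ± 7.97 for E, 100.1 ± 4.08 for C and 141.8 ± 8.21 for CE (SD, n = 3). It rose 1.39-fold (log2 0.47, SE 0.077, edgeR adjusted p = 0.00963), against the direction of 45 of the 48 members. Rcl1 lies at chr19:29101375-29143851 (mm10), and whether genes near it moved alike was not tested here. In C against WT Ngdn, Fcf1 and Exosc7 fell (2.5% of the 120, against 0.656% of all genes called in either direction). In CE against E Dcaf13, Rrp15, Rpf2, C1d and Mphosph6 fell (4.17%, against 1.58%).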

How the data were processed

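Total RNA of sorted stem cells was sequenced in 12 libraries. The authors deposited raw counts per gene, whole numbers with no normalization found in them. STAR 2.5.3 and mm10 are named in the submitters' processing notes. The read counter, annotation and strandedness are not stated by any label or header used here, so reads of overlapping or near-identical genes could be divided between them. RefSeq matched 25275 of the 27179 gene numbers. The other 1904 had no symbol and stayed in the tests. They made up 2.45% of the counts in WT2 and 0.546 to 1.08% in each other library.

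The comparisons came from a single model of the 12 libraries in edgeR 4.0.16 (run in R 4.3.3) with TMM factors, filterByExpr and quasi-likelihood F tests (two-sided). Calls used a Benjamini-Hochberg adjusted p under 0.05 over 14473 genes; the biological coefficient of variation was 0.139. The script was tested on simulated data. Alternatives used DESeq2 1.42.0, limma 3.58.1 (voom with quality weights), RLE or no factors, other count filters, only the groups compared, a replicate block, a Y-linked covariate, per-library length and GC trends removed, and fewer libraries. Transcript and coding lengths and GC came from GENCODE. Copies were other genes sharing at least 100 runs of 50 bases with a member.

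The members and all lists were chosen with earlier results of these data known. Named in full are members called in any comparison (at most 3 per role with the smallest p), and in each role the highest mean CPM, the 2 smallest transgene p and the smallest caspase p. Nop16, the other members and 4 of the 5 printed promoter stretches were named outside this rule after their values were seen. Of 124 pathway genes 120 were matched and tested. The p-values set a difference between groups against the spread between mice, estimated over all groups together. No batch is given in the labels.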

Additional observations from a re-analysis of the deposited data

How the results depend on the processing

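For E against WT and CE against C no alternative called a member, while the medians ran from -0.20 to -0.0038 and from -0.17 to -0.060. For C against WT, with 0 calls in edgeR, there were 4 with DESeq2, 4 with limma voom, 6 with no filter on low counts, 9 with the replicate block and 12 without WT4 and CE3 together, where 9.35, 12.3, 6.36, 14.1 and 19.7% of all genes were called. For CE against E, also with 0, there were 5 with DESeq2, 5 with limma voom, 6 with no filter, 4 with only the groups compared, 6 with the replicate block, 4 without WT2 and E3 together and 1 without WT4 and CE3 together, where 9.25, 9.62, 4.8, 6.07, 10.2, 5.71 and 4.28% of all genes were called. The pooled transgene comparison gained 1 call, Odc1, with DESeq2 (1.44% of all genes) and 1 with no filter (1.39%). The 12 pooled caspase calls became 0 with the Y-linked covariate, 0 without C1 and C3 together, 4 with length and GC trends removed, 17 with the replicate block and 19 without WT4 and CE3 together, where 0.0138, 0.133, 11.0, 30.6 and 31.1% of all genes were called (21.0% in the reported fit). Of the calls named in full, Npm1 and Gar1 kept an adjusted p under 0.05 in 22 of 24 alternatives. Wdr12, Cad and Ranbp1 kept it in 21 and Utp18 in 18. Imp3, Nip7 and Mrto4 kept it in 14, Nhp2 in 13 and Ltv1 in 12. The cause of each shift was not tested.

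Leaving out 1 library at a time gave 0 to 9 calls for C against WT (9 without WT4, where 15.2% of all genes were called), 0 to 6 for CE against E (6 without WT4, 10.6% of all genes) and 5 to 19 for the pooled caspase comparison. The median E against WT fold change then ranged from -0.20 to -0.054, and it was -0.0038 without WT2 and E3 together. The median difference between the transgene comparisons, 0.061, was -0.082 without those libraries. The pairs WT2 and E3, and WT4 and CE3, were left out as alternatives chosen after seeing the data. Once C1 and C3 are dropped, C2 alone stands for C and is assumed to vary like the rest. No called member named in full reversed its direction under these alternatives.

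Replicate numbers showed no pairing of the mice: correlations of deviations between libraries of the same number ran from -0.244 to 0.166. The block changed no call for the transgene comparisons. Only WT4 has the number 4, so the block fits WT4 exactly and acts much like leaving it out. For C against WT, 9 members were called with the block and 9 without WT4 (14.1 and 15.2% of all genes). For the pooled caspase comparison the calls were 17 and 19 (30.6 and 31.3% of all genes). With 3 mice a group, differences of the size seen here in the transgene comparisons were near the spread between mice.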

Other observations

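Members with the E-box in their promoter window were compared with the other members that had a window. Averaged over both backgrounds, the median transgene log2 fold change of those with the motif was -0.12, against -0.14 for members with a window and no CACGTG. For the caspase label the medians were 0.04 and -0.13, and for C against WT -0.018 and -0.21. These are descriptions of 11 members against the others, with no test, and the length and GC content of the members were not balanced between them.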
